A study of Mus musculus with 6 samples.

Results

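The secreted Wnt ligands, their Frizzled receptors, their secreted inhibitors and the R-spondins that amplify their signal were followed in mouse lung with silicosis, a scarring disease caused by crystalline silica. The genes were taken by name from the mRNA count table, as every symbol that starts with Wnt, Fzd, Sfrp, Dkk or Rspo followed directly by a digit. This gave 41 of 17973 mRNAs, which are 19 Wnt ligands, 10 Frizzled receptors, 8 inhibitors (4 Sfrp and 4 Dkk) and 4 R-spondins.

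Total RNA of lungs from C57BL/6 mice was sequenced in 6 libraries. The 3 silicosis libraries, N129, N136 and N138, came from mice given silica once into the trachea, 8 mg suspended in 40 µL of sterile saline. The 3 control libraries, C7, C8 and C9, are described in the series text as a sterile saline sample. Lungs were frozen 90 days after treatment. The sources used here do not state age, sex or batch, and they do not name a separate mouse for each library. The p-values therefore cover only the spread among these 6 libraries, which may be technical.

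Wnt proteins are lipid-modified signals that bind a Frizzled receptor together with the co-receptor Lrp5 or Lrp6, which stabilises beta-catenin and switches on target genes such as Axin2. Secreted Frizzled-related proteins (Sfrp) bind Wnts outside the cell, Dickkopf proteins (Dkk) mostly act on the Lrp co-receptors, and R-spondins raise signalling by sparing Frizzled from removal at the cell surface. In the adult lung, Wnt signals from fibroblasts maintain alveolar type 2 cells, and Wnt activity has been studied widely in lung fibrosis.

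Several of these genes lie next to each other in the genome. Promoters of some are shown, picked because in the pairs with called genes both ligands changed in the same direction below. In the RefSeq gene table of GRCm38.p6, 4 pairs of the 41 genes were direct neighbours. Wnt3a and Wnt9a stand on opposite strands of chromosome 11, and both were lower in silicosis. Wnt6 and Wnt10a are neighbours on chromosome 1, and both were higher, but Wnt10a had no promoter window. The calls of Wnt9a and Wnt10a were each lost in some of the alternative fits given below. The other two pairs were Wnt9b with Wnt3 and Wnt10b with Wnt1, in which no gene was called. The windows run from 250 bases before to 50 bases after the annotated start, 5′ to 3′ on the strand of the gene, with every CG dinucleotide (CpG) in capitals. Wnt3a is at chr11:59290702-59291001 on the minus strand with 45 CpG, and Wnt9a at chr11:59306680-59306979 on the plus strand with 58 CpG, with 15678 bases between the windows. Wnt6 is at chr1:74771642-74771941 on the plus strand with 31 CpG. Dkk2, at chr3:132085042-132085341 on the plus strand, had 11 CpG, the lowest count among the called genes with a window.
Wnt3a: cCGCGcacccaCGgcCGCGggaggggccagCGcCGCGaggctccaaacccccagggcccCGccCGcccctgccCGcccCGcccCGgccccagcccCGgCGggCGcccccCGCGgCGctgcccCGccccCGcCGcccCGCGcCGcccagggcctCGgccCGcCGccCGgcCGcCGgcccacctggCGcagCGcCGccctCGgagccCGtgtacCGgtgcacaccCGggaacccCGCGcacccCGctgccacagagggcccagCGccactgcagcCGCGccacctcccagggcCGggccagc
Wnt9a: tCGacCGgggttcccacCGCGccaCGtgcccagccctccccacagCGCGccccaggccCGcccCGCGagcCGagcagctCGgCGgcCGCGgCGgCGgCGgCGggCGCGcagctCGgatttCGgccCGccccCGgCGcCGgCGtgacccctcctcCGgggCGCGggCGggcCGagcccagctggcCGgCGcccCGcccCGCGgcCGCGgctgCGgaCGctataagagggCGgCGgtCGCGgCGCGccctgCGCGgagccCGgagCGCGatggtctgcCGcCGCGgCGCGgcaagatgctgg
Wnt6: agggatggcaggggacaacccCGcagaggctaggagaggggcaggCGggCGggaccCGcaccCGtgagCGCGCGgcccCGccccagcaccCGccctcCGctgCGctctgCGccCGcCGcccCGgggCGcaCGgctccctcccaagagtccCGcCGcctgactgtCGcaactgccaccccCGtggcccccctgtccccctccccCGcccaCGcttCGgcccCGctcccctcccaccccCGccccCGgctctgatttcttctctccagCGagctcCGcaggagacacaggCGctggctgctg
Dkk2: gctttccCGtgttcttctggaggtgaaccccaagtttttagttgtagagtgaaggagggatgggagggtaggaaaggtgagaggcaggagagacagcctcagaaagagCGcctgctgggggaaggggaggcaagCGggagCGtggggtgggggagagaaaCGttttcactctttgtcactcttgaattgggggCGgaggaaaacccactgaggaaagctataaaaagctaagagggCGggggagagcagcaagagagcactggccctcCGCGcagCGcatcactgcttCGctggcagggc

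Promoter windows were used for 27 of the 41 genes and for 11 of the 14 called below. Any windows of the family on chromosome 18 were left out, a limit not set for the other mRNAs. The median number of CpG per window was 29 over the tested genes of the family, against 18 over all tested mRNAs with a window. Called genes had a median of 31 and the other tested genes of the family 26. The TCF/LEF core CTTTGAA or CTTTGAT, searched on both strands, was in 3 of the 30 windows of the family (10%) and in none of the called genes' windows. The window of Dkk1, which was not tested, is among the 3. The core was in 8.65% of all 32851 windows of the table and in 6.32% of the windows of tested mRNAs. At such shares 11 called genes are too few for the lack of a match to be read. These matches describe the letters of the windows only.

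The comparison asked how expression of the family differs between silicotic and control lung. In silicosis the inhibitors Sfrp1, Dkk2 and Sfrp5 and the ligands Wnt6, Wnt10a and Wnt7b rose. The ligands Wnt3a, Wnt2, Wnt7a and Wnt9a, the receptors Fzd4 and Fzd7, and the R-spondins Rspo1 and Rspo4 fell. Of the 41 genes, 34 had enough counts to be tested and 14 of these passed the edgeR quasi-likelihood test (adjusted p under 0.05), 6 higher and 8 lower in silicosis. This is 41.2% of the tested genes, against 31.8% of all 15808 tested mRNAs. Over all mRNAs, 15.3% were higher and 16.5% lower.

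By role, the called genes split unevenly. Of 6 tested inhibitors 3 rose and none fell, with a median log2 fold change of 1.12. Among 15 tested ligands 3 rose and 4 fell, with a median of -0.19. Of 9 tested receptors 2 fell and none rose (median -0.14), and of 4 R-spondins 2 fell and none rose (median -0.13). The share called was 50% of inhibitors, 46.7% of ligands, 22.2% of receptors and 50% of R-spondins, against 31.8% of all tested mRNAs. The receptor share lies under that of all mRNAs, so its count is not read as a change of that role. The median over all tested mRNAs was 0.02. Without a scaling factor the median of all mRNAs moved to 0.13, that of the family from -0.10 to 0.01, and the receptors had 1 call in each direction. The share of higher genes among all calls was then 64.0%, against 48.2% with TMM scaling.

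**Figure D1:**
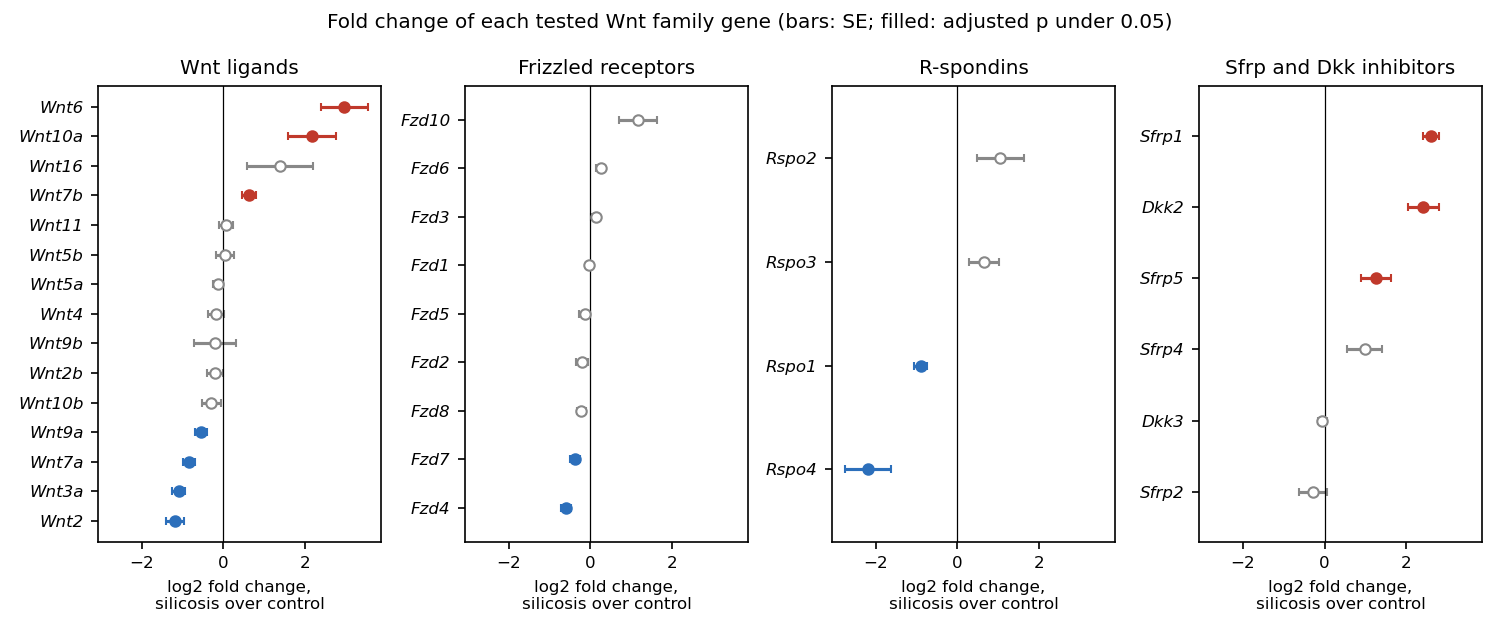
log2 fold change, silicosis over control, of the 34 tested genes by role. Points are edgeR estimates, horizontal bars are the SE, and filled points have an adjusted p under 0.05; the 3 filled inhibitors lie right of 0, the 2 filled receptors and 2 filled R-spondins lie left of it, and the ligands lie on both sides.

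Values per library are normalised counts (CPM, counts per 1000000 of the TMM-adjusted library total). They are listed in the order N129, N136 and N138 for silicosis, and C7, C8 and C9 for control. A gene has no overlap when its 3 values in 1 group all lie above those of the other, which held for 16 of the 34 tested genes and for 47.7% of all tested mRNAs. At least a 2-fold change was called for 8 of the 34, against 8.42% of all tested mRNAs. In whole lung RNA, fewer cells of a type and less RNA per cell cannot be told apart.

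Among the inhibitors, Sfrp1, whose protein carries a Frizzled-like domain that binds Wnts, had 96.5, 156 and 118 CPM in silicosis lungs, against 16.3, 21.7 and 22.6 CPM in control lungs. All silicosis libraries stood far above all controls, with N136 the highest. The fold change was 6.11 (log2 2.61, SE 0.19, edgeR adjusted p = 5.75e-05), the lowest p in the family.

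Dkk2, an Lrp5 and Lrp6 binding protein of the Dickkopf family, had 4.93, 5.78 and 4.28 CPM in silicosis lungs, against 1.19, 0.431 and 1.17 CPM in control lungs. It was thus low in every control and higher in each silicosis library, with C8 the lowest. This gave a log2 fold change of 2.42 (SE 0.37, edgeR adjusted p = 0.00154). Sfrp5, a Sfrp1 relative known in mouse fat tissue as a binder of Wnt5a, had 1.67, 2.68 and 2.09 CPM in silicosis lungs, against 0.919, 0.574 and 1.20 CPM in control lungs. Its groups did not overlap, but N129 and C9 lay close. Sfrp5 had a log2 fold change of 1.26 (SE 0.36, edgeR adjusted p = 0.0275), and the call ended without C7, C8 or N136, where the adjusted p was 0.0728, 0.0904 and 0.0903.

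The other tested inhibitors were not called. Sfrp4, a Sfrp family Wnt binder, had 2.79, 2.94 and 2.48 CPM in silicosis lungs, against 0.621, 1.20 and 2.35 CPM in control lungs, without overlap. Its log2 fold change was 0.98 (SE 0.43, edgeR adjusted p = 0.113), and without C9, its highest control, it was 1.58 with an adjusted p of 0.0196. Sfrp2 had 3.21, 3.62 and 8.04 CPM in silicosis lungs, against 4.97, 6.20 and 6.81 CPM in control lungs. N138 lay above all controls and the other two silicosis libraries below them. Without N138 its log2 fold change was -0.81 (edgeR adjusted p = 0.0246), against -0.28 with all libraries. Dkk3, a divergent Dickkopf that does not share the Lrp binding of its relatives, had 107 ± 7.27 CPM in silicosis and 111 ± 13.5 CPM in control lungs (SD, n = 3 each), and its log2 fold change was -0.06 (SE 0.11).

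Levels of different genes were set beside each other as CPM per kilobase of the longest annotated transcript. On that scale Sfrp1 was the second of the 41 genes in silicosis, at 28.2 ± 6.84 CPM per kilobase, against rank 15 in control lungs at 4.62 ± 0.773 CPM per kilobase (SD, n = 3 each). Dkk3 was at 31.9 ± 2.16 CPM per kilobase in silicosis and 33.2 ± 4.02 CPM per kilobase in control lungs. Sfrp1 made up 38.4%, 47.1% and 41.8% of the summed inhibitor level per kilobase in the silicosis libraries, against 9.37%, 10.7% and 13.0% in the controls. Dkk3 held 53.4%, 45.6% and 47.4% of it in silicosis, against 81.4%, 80.8% and 74.6% in control. Among these 8 genes, which were grouped by name, the mRNA of control lungs was mainly Dkk3, and that of silicotic lungs was mainly Dkk3 and Sfrp1. Antagonists with other names lie outside this sum.

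The summed inhibitor level, in CPM, was 213, 286 and 238 in silicosis libraries, against 133, 156 and 133 in controls. Without Sfrp1, a sum chosen after the values were seen, it was 116, 131 and 120 CPM in silicosis, against 117, 135 and 111 CPM in control lungs, and the groups overlapped. The separation of the inhibitor sum was thus carried by Sfrp1.

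**Figure D2:**
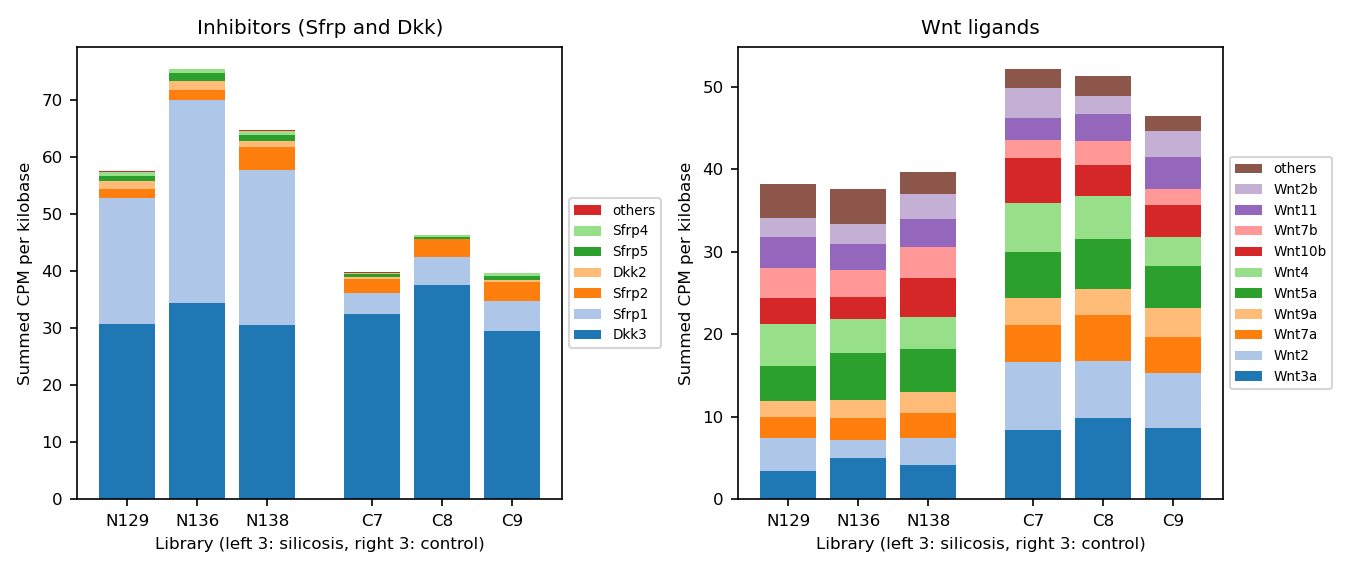
Stacked CPM per kilobase of the inhibitors (left panel) and the Wnt ligands (right panel) in each library, silicosis libraries left of control libraries in each panel. The Sfrp1 segment is 22.1 to 35.6 in silicosis and 3.74 to 5.16 in control, while the Dkk3 segment is of like height in both; the ligand bars are lower in silicosis than in control.

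Among the ligands that rose, Wnt6, an epithelial ligand known for kidney tubule formation, had the steepest change. It had 2.45, 3.44 and 0.918 CPM in silicosis lungs, against 0.149, 0.455 and 0.261 CPM in control lungs. The control values rest on 6, 19 and 10 counts, and N138 was the lowest silicosis library. This gave a log2 fold change of 2.96 (SE 0.58, edgeR adjusted p = 0.00491).

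Its neighbour Wnt10a, a ligand of skin appendage and tooth development, had 1.04, 1.35 and 0.445 CPM in silicosis lungs, against 0.124, 0.144 and 0.365 CPM in control lungs. As with Wnt6, N136 was the highest and N138 the lowest silicosis library, and N138 and C9 lay close. Its log2 fold change was 2.17 (SE 0.59, edgeR adjusted p = 0.0215), and the adjusted p was 0.0807, 0.0840, 0.0614 and 0.0759 without C7, C8, N129 and N136, each of which ended the call. Without C9, its highest control, the log2 fold change was 2.80.

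Wnt7b, made by the lung epithelium and needed for lung growth in mouse embryos, had 12.1, 11.2 and 13.0 CPM in silicosis lungs, against 7.30, 9.72 and 6.42 CPM in control lungs. The silicosis values were tight, and C8 came nearest to them. Wnt7b had a log2 fold change of 0.63 (SE 0.18, edgeR adjusted p = 0.0265). The call ended without C7, C9, N129 or N138, with adjusted p of 0.0897, 0.0792, 0.0696 and 0.0520. Wnt7b overlaps an exon of AU022754 on the opposite strand, and without a stated strand setting reads from the overlap cannot be told apart. Windows of 50 bases shared with 1 other gene made up 1.19% of the longest Wnt7b transcript.

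In control lungs the 4 ligands that fell had levels of 3.30 to 8.93 CPM per kilobase of transcript, and the 3 that rose 0.0855 to 2.30 CPM per kilobase. The lowest of these, Wnt10a, had 5, 6 and 14 counts in control libraries, against 40, 59 and 16 in silicosis libraries. A ligand this low in control passes the filter on low counts only through its silicosis libraries, which partly sets this contrast. Wnt3a, a classical activator of beta-catenin signalling, had 9.39, 13.9 and 11.2 CPM in silicosis lungs, against 23.1, 27.0 and 23.9 CPM in control lungs. Every silicosis library was well under the lowest control. The log2 fold change was -1.10 (SE 0.16, edgeR adjusted p = 0.0011).

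Wnt9a, its neighbour on chromosome 11 and a ligand of joint formation, had 6.73, 7.36 and 8.46 CPM in silicosis lungs, against 10.8, 10.6 and 11.5 CPM in control lungs. The controls lay within a narrow range above all silicosis libraries. Wnt9a had a log2 fold change of -0.54 (SE 0.15, edgeR adjusted p = 0.0215). The call ended without C7, C8, C9, N129 or N136, where the adjusted p was 0.0608, 0.0571, 0.0605, 0.0810 and 0.0501, and it was 0.0559 without a scaling factor.

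Wnt2, which together with Wnt2b specifies the lung in the mouse embryo, had 8.97, 4.89 and 7.62 CPM in silicosis lungs, against 18.6, 15.6 and 14.8 CPM in control lungs. N136 was the lowest, and all silicosis values lay far under the controls. The log2 fold change was -1.19 (SE 0.22, edgeR adjusted p = 0.00358). For Wnt7a, a ligand of limb patterning, 8.01, 8.21 and 9.43 CPM were measured in silicosis lungs, against 14.2, 17.6 and 14.2 CPM in control lungs. Its groups were also well apart, with a log2 fold change of -0.84 (SE 0.15, edgeR adjusted p = 0.00286).

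The 8 other tested ligands were not called. Wnt5a, the main ligand of beta-catenin-independent signalling, had 29.7, 39.6 and 36.8 CPM in silicosis lungs, against 39.0, 42.4 and 35.2 CPM in control lungs. Wnt4, a ligand of kidney and ovary development, had 21.2, 17.4 and 16.0 CPM in silicosis lungs, against 25.2, 22.04 and 15.0 CPM in control lungs. Both overlapped between groups, with log2 fold changes of -0.14 (SE 0.13) and -0.19 (SE 0.20). Wnt10b, Wnt2b, Wnt5b, Wnt9b and Wnt11 had log2 fold changes between -0.30 and 0.06. Wnt16, a ligand that limits bone loss in the mouse, had 1.46, 0.573 and 0.389 CPM in silicosis lungs, against 0.720, 0.120 and 0.0783 CPM in control lungs. Both of its groups were uneven, with a log2 fold change of 1.39 (SE 0.81, edgeR adjusted p = 0.22), and without C7, the high control, it was 2.98 with an adjusted p of 0.0342.

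The summed ligand level was 135.5, 138.5 and 143.6 CPM in silicosis libraries, against 180.1, 179.9 and 159.9 CPM in controls, without overlap. Per kilobase of the longest transcript, Wnt3a was the top ligand in each control library, at 16.0%, 19.1% and 18.6% of the ligand sum, and held 8.91%, 13.4% and 10.3% in silicosis libraries. In silicosis the top ligand was Wnt4 in N129 and Wnt5a in N136 and N138. This order depends on the length used: by the shortest coding transcript, Wnt11 led both groups, at 18.5 CPM per kilobase in silicosis and 17.7 CPM per kilobase in control.

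**Figure D3:**
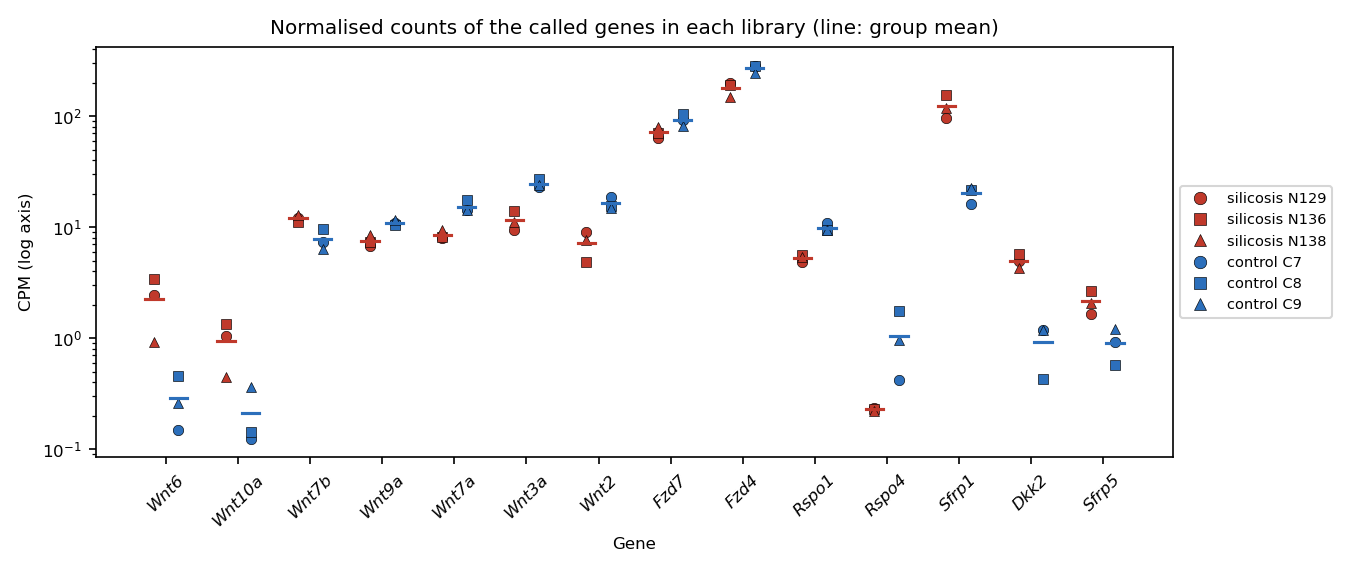
CPM of the 14 called genes in each library on a log axis, silicosis (red) left of control (blue) for each gene, with a line at the group mean. Sfrp1 lies between 96.5 and 156 CPM in silicosis and between 16.3 and 22.6 CPM in control, and for every gene shown the groups do not overlap.

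No receptor was called with a 2-fold change. Fzd4, the receptor of Norrin in retinal vessels as well as of Wnts, had 198, 191 and 149 CPM in silicosis lungs, against 285, 282 and 246 CPM in control lungs. N138 was the lowest of all and the groups did not overlap. Its log2 fold change was -0.60 (SE 0.12, edgeR adjusted p = 0.00674). Fzd7, a receptor of intestinal stem cells in the mouse, had 64.1, 70.2 and 80.0 CPM in silicosis lungs, against 92.6, 105 and 81.0 CPM in control lungs. N138 and C9 were nearly level. Fzd7 had a log2 fold change of -0.38 (SE 0.12, edgeR adjusted p = 0.0433), and the call ended without C7, C8, N129 or N136 (adjusted p of 0.101, 0.156, 0.147 and 0.0845) and without a scaling factor (0.126).

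The 7 other tested receptors were not called. Fzd1, Fzd2, Fzd3, Fzd5, Fzd6 and Fzd8, which share the Wnt-binding and membrane-spanning build of the family, had log2 fold changes between -0.22 and 0.25. Fzd6 had 58.2 ± 7.24 CPM in silicosis and 49.1 ± 4.30 CPM in control lungs (SD, n = 3 each), and was called only without a scaling factor (log2 fold change 0.35, edgeR adjusted p = 0.0429). Fzd10 had 0.417, 0.872 and 0.612 CPM in silicosis lungs, against 0.199, 0.287 and 0.365 CPM in control lungs. Its groups did not overlap, on 76 counts in silicosis and 34 in control over all libraries, and its log2 fold change was 1.16 (SE 0.47, edgeR adjusted p = 0.0914).

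Summed over the receptors, silicosis libraries had 557, 580 and 526 CPM, against 680, 720 and 614 CPM in controls, without overlap. Fzd4 had the highest CPM of the receptors in every library, and no sum without Fzd4 was made. The separation is therefore not shown for the other receptors together, of which Fzd3, Fzd6 and Fzd10 had higher means in silicosis and the rest lower means. Fzd4 was the top receptor per kilobase in every library but N138, where Fzd1 was, and held 29.2%, 26.5% and 22.2% of the receptor sum in silicosis libraries, against 34.7%, 32.0% and 32.8% in controls.

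Among the R-spondins, Rspo1, which binds the Lgr receptors and acts in ovary development, had 4.85, 5.67 and 5.37 CPM in silicosis lungs, against 10.98, 9.43 and 9.34 CPM in control lungs. Silicosis values were tight and about level with each other, all far under the controls. The log2 fold change was -0.90 (SE 0.16, edgeR adjusted p = 0.00287), and Rspo1 was the top R-spondin per kilobase of the longest transcript in every library. By the shortest coding transcript, the silicosis means were near each other, at 2.89 CPM per kilobase for Rspo1 and 2.78 CPM per kilobase for Rspo3. Rspo4, needed for human nail formation, had 0.235, 0.229 and 0.223 CPM in silicosis lungs, against 0.422, 1.77 and 0.966 CPM in control lungs. It rests on 9, 10 and 8 counts in silicosis and 17, 74 and 37 in control, and the controls were spread widely. Rspo4 had a log2 fold change of -2.19 (SE 0.57, edgeR adjusted p = 0.0177). The call ended without C8 (log2 fold change -1.59, adjusted p = 0.0856) and without N129 (adjusted p = 0.0550).

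Rspo2 and Rspo3, the R-spondins of limb and vessel development, were not called. Rspo2 had 1.51, 0.780 and 0.751 CPM in silicosis lungs, against 0.149, 0.766 and 0.548 CPM in control lungs. Rspo3 had 1.56, 2.06 and 3.67 CPM in silicosis lungs, against 1.91, 1.32 and 1.44 CPM in control lungs. The groups of both genes overlapped. Their log2 fold changes were 1.05 (SE 0.57) and 0.64 (SE 0.36). With 1 library left out the value was 0.62 without C7 to 1.54 without C8 for Rspo2, and 0.23 without N138 to 0.88 without N129 for Rspo3. The R-spondin sum was 8.16, 8.74 and 10.02 CPM in silicosis, against 13.5, 13.3 and 12.3 CPM in control lungs. Rspo1 had the highest CPM of the R-spondins in every library, and no sum without Rspo1 was made. The separation is therefore not shown for the other R-spondins together, of which Rspo2 and Rspo3 had higher means in silicosis and Rspo4 a lower mean.

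Another 7 genes had too few counts to be tested. Over the libraries of each group, Fzd9 had 6 counts in silicosis and 19 in control, Wnt8a 3 in silicosis and 9 in control, and Dkk4 12 in silicosis and 18 in control. Dkk1, the founding Dickkopf inhibitor, had 13 counts in silicosis and 3 in control, Wnt1 had 6 in silicosis and 4 in control, Wnt3 had 16 in silicosis and 12 in control, and Wnt8b had 23 in silicosis and 22 in control. The main fit left them out, and none was called in the fit without the filter or in the authors' deposited table.

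Of the 14 calls, 8 held under all 11 alternative fits: Sfrp1, Dkk2, Wnt6, Wnt3a, Wnt7a, Wnt2, Rspo1 and Fzd4. Of the 41 genes, 14 in the authors' deposited table had an adjusted p under 0.05, the same 14 with the same signs, against 32.1% of its mRNAs with an adjusted p; it was made from the same libraries.

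The pathway around these genes was read from 6 lists, of which 76 tested genes hold 11 that rose and 28 that fell, with a median log2 fold change of -0.21. This is 51.3% called, against the 31.8% of all mRNAs given above. Of these 39 calls, 28 held under all 11 alternative fits. Each list is given by its counts and the 3 called genes with the lowest p. Lgr5 was set to be given in any case, and the other genes named with the lists were chosen after their values were seen.

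Of 15 co-receptors and regulators of receptor turnover, 1 rose and 6 fell (median -0.23). Lrp5, the Wnt co-receptor, had 139, 143 and 141 CPM in silicosis lungs, against 222, 236 and 227 CPM in control lungs (log2 fold change -0.70, SE 0.08, edgeR adjusted p = 0.000384). Reck, a partner of Wnt7a and Wnt7b signalling in brain vessels, had 46.1, 45.9 and 56.0 CPM in silicosis, against 105, 98.8 and 101 CPM in control (edgeR adjusted p = 0.000202, log2 fold change -1.04, SE 0.10). Both lay far under the controls in every silicosis library. Znrf3, a ligase that removes Frizzled and the target of R-spondin action, had 47.6 ± 0.740 CPM in silicosis and 73.8 ± 0.806 CPM in control lungs (SD, n = 3 each). The 1 that rose was Ror1, a Wnt5a receptor (log2 fold change 0.64, SE 0.14). Among the genes that fell, the calls of Lrp6 and Adgra2 were the less firm. That of Lrp6 ended without C7, C8 or N129 and without a scaling factor (edgeR adjusted p of up to 0.0888), and that of Adgra2 without C7, C8, N129 or N138 and without a scaling factor (up to 0.161). Lgr5, an R-spondin receptor and stem cell marker, had 1.62 ± 0.245 CPM in silicosis and 1.25 ± 0.0409 CPM in control lungs (SD, n = 3 each) and was not called (log2 fold change 0.38, SE 0.29).

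Of 13 other extracellular antagonists 3 rose and 3 fell (median 0.23). Frzb, a secreted Frizzled-related protein whose symbol falls outside the naming rule, had 5.503, 5.73 and 6.59 CPM in silicosis lungs, against 0.224, 0.239 and 0.261 CPM in control lungs. The controls rest on 9, 10 and 10 counts and stand far under all silicosis libraries. The log2 fold change was 4.61 (SE 0.27, edgeR adjusted p = 1.63e-05), steeper than any called gene of the family. Trabd2b, a protease that cleaves Wnts, was lower in silicosis by a log2 fold change of -0.65 (SE 0.11). For Apcdd1, a membrane Wnt inhibitor, it was -0.77 (SE 0.13). Shisa3 rose, but its call ended without C8 or N129 (edgeR adjusted p of up to 0.0704). Igfbp4 had 329 ± 88.2 CPM in silicosis and 231 ± 24.1 CPM in control lungs (SD, n = 3 each). It was not called (log2 fold change 0.51, SE 0.17, edgeR adjusted p = 0.0511).

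Feedback and target genes of beta-catenin signalling were measured for 17 genes, of which 2 rose and 5 fell (median -0.24). Axin2, the most used reporter of the pathway, had 28.5, 26.9 and 34.2 CPM in silicosis lungs, against 59.99, 64.8 and 60.2 CPM in control lungs. Its values were tight within groups and well apart between them (log2 fold change -1.05, SE 0.11, edgeR adjusted p = 0.000286). Nkd1, a feedback inhibitor acting on Dishevelled, had 85.4, 86.1 and 82.3 CPM in silicosis, against 170, 173 and 159 CPM in control (edgeR adjusted p = 9.54e-05, log2 fold change -0.98, SE 0.08). Cd44, a hyaluronan receptor also abundant on leukocytes, went the other way, with 626 ± 61.6 CPM in silicosis and 283 ± 12.8 CPM in control lungs (SD, n = 3 each). The other riser was Ccn4, whose call ended without C8, C9 or N138 (edgeR adjusted p of up to 0.101).

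Inside the cell, 1 of 23 transduction genes rose and 9 fell (median -0.24). The log2 fold change was -0.95 (SE 0.09) for Bcl9l, a beta-catenin co-activator, -0.67 (SE 0.10) for Dvl3, a Dishevelled adaptor, and -1.25 (SE 0.19) for Tcf7l1, a TCF transcription factor. The 1 that rose, Dvl1, lost its call without any 1 of the 6 libraries (edgeR adjusted p of up to 0.112). Of the 9 that fell, Tle4 lost its call without any 1 of the 6 libraries, without a scaling factor and without the filter (up to 0.230). Tle1 lost it without C7, C8, N129 or N136 (up to 0.0973), and Bcl9 without C8, C9, N129 or N136 (up to 0.0629), and both also without a scaling factor. Ctnnb1, which encodes beta-catenin, was not called, at 722 ± 81.9 CPM in silicosis and 581 ± 63.7 CPM in control lungs (SD, n = 3 each; log2 fold change 0.31, SE 0.12). All 9 genes of planar cell polarity, the Wnt branch that orients cells in a sheet, were called, 2 higher and 7 lower (median -0.44), but 2 of the lower calls were not firm. That of Celsr2 ended without any 1 of the 6 libraries, without a scaling factor and without the filter (edgeR adjusted p of up to 0.214), and that of Vangl2 without C7, C8, C9 or N129 (up to 0.0762). Prickle1, a core polarity protein, had 96.6 ± 22.3 CPM in silicosis and 199 ± 13.0 CPM in control lungs (SD, n = 3 each), and log2 fold changes were -0.58 (SE 0.10) for Prickle2 and -0.72 (SE 0.10) for Daam2, a formin of the branch, while the cadherins Celsr1 and Celsr3 rose by 0.59 (SE 0.11) and 1.60 (SE 0.30) on the log2 scale. For Wnt secretion 2 of 6 genes rose and none fell (median 0.17): Vps35 and Tmed5, both of protein sorting, each with a log2 fold change of 0.47. The Tmed5 call ended without C8, C9 or N136, with an edgeR adjusted p of up to 0.0644.

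**Figure D4:**
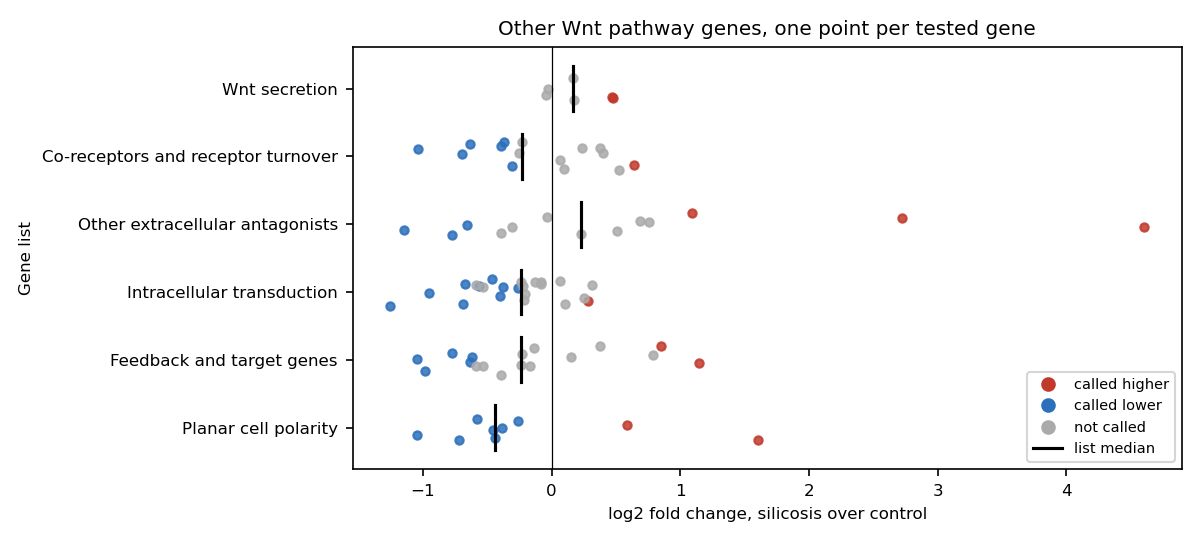
log2 fold change, silicosis over control, of each tested gene in the 6 Wnt pathway lists, with the list median as a black line. Blue points (called lower) outnumber red ones (called higher) in co-receptors, transduction, feedback and planar polarity genes; the point farthest right is Frzb at 4.61.

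Markers of lung cell types moved in the same libraries, and their part in the changes above was not tested. The counts of called markers stand against 15.3% of all tested mRNAs higher and 16.5% lower. Alveolar type 1 markers fell in 6 of 8, with a summed level of 2689 to 3025 CPM in silicosis, against 4739 to 5360 CPM in control. Endothelial markers fell in 8 of 9 (2280 to 2554 CPM in silicosis, against 4393 to 4798 CPM in control) and alveolar fibroblast markers in 7 of 7 (1332 to 1906 CPM in silicosis, against 4026 to 4169 CPM in control). Fibrotic fibroblast markers rose in 5 of 7 (4549 to 6029 CPM in silicosis, against 2577 to 3098 CPM in control). Postn and Cthrc1 of that list were not called (log2 fold changes -0.02 and -0.18), and Spp1 had its highest log2 fold change, 4.86. Macrophage and monocyte markers rose in 7 of 8 (5993 to 10718 CPM in silicosis, against 3189 to 3778 CPM in control), and basal cell markers in 5 of 5 (12.7 to 14.8 CPM in silicosis, against 1.52 to 3.001 CPM in control). Lyz2 held most of the macrophage and monocyte sum, at 5460, 9366 and 4960 CPM in silicosis, against 2801, 3339 and 2791 CPM in control. Of 7 alveolar type 2 markers 1 fell, a share near that of all mRNAs, and their sum overlapped between groups, at 15671 to 23267 CPM in silicosis and 16940 to 19741 CPM in control. The basal keratin Krt5, named after its values were seen, was at 0 in every control library. Smooth muscle and myofibroblast markers fell in 5 of 7 (429 to 466 CPM in silicosis, against 629 to 839 CPM in control), pericyte markers in 2 of 6 (841 to 933 CPM in silicosis, against 999 to 1121 CPM in control) and mesothelial markers in 4 of 6 (141 to 182 CPM in silicosis, against 216 to 239 CPM in control). Ciliated cell markers fell in 3 of 6, with overlapping sums (453 to 543 CPM in silicosis, against 480 to 699 CPM in control). Leukocyte markers rose in 4 of 8 (1175 to 1445 CPM in silicosis, against 799.7 to 978 CPM in control) and adipocyte markers in 3 of 4 tested (18.3 to 47.3 CPM in silicosis, against 10.04 to 15.9 CPM in control). Club and goblet markers had 2 higher and 1 lower of 6, with a sum of 5189 to 9281 CPM in silicosis, against 10993 to 18682 CPM in control. Scgb1a1, the lower one, held most of that sum, at 5046, 3955 and 7622 CPM in silicosis, against 9755, 10995 and 16836 CPM in control. Muc5ac and Agr2 were the higher ones. For cardiac muscle 1 of 5 was higher, near the share of all mRNAs, with overlapping sums (83.3 to 149 CPM in silicosis, against 114 to 323 CPM in control). Adventitial fibroblast markers had 1 higher and 1 lower of 7, also with overlapping sums (531 to 651 CPM in silicosis, against 516 to 605 CPM in control). All listed markers of alveolar type 1, alveolar type 2 and endothelial cells had counts in every library.

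**Figure D5:**
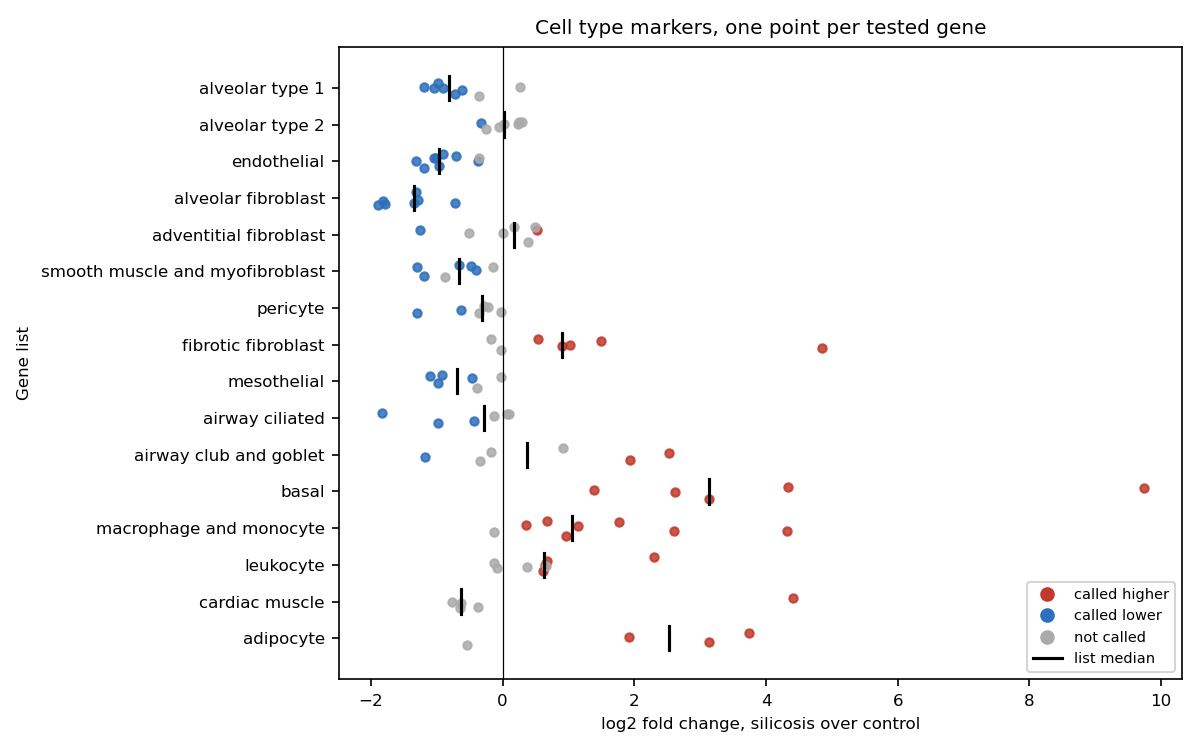
log2 fold change, silicosis over control, of each tested gene in 16 cell type marker lists, with the list median as a black line. Alveolar type 1, endothelial and alveolar fibroblast points lie mostly left of 0 and macrophage, fibrotic fibroblast and basal points mostly right of it.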

How the data were processed

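Per the file headers, the authors deposited raw whole-number counts per gene and library for mRNAs (and, in another table, lncRNAs), with a comparison table of log2 fold changes, silicosis over control, p-values and adjusted p-values made by the authors. The submitters' processing notes list, without role or order, DESeq2 1.36.0, featureCounts 2.0.0, Trimmomatic 0.39, Bowtie2 and HISAT2 and the build GRCm39. No strand setting is given in the labels or headers. The mRNA libraries held 33698920 to 44000748 counts. Pairs of libraries within a group differed by 15.0 to 79.0 chi-square per degree of freedom, more than sampling noise. All mRNAs were fitted together in edgeR 4.0.16 (R 4.3.3): filterByExpr, TMM factors, two-sided quasi-likelihood test, Benjamini-Hochberg adjustment over 15808 mRNAs, threshold 0.05. The SE is the size of the log2 fold change over the square root of F. The fit was tested on simulated data.

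The alternatives were DESeq2 size factors, no scaling factor, no filter, DESeq2 1.42.0, limma-voom (limma 3.58.1), each library left out, a 2-fold minimum, and the shortest coding transcript for levels per kilobase. Transcript lengths came from GENCODE M21 and promoters and neighbours from RefSeq GRCm38.p6, earlier builds than the authors' GRCm39. All 41 symbols were found in both gene tables.

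The genes, lists and tests were chosen with earlier results of these data known. Called genes of the family are given per library. The rule for other names took the 3 called genes with the lowest p of each pathway list, plus Axin2 and Lgr5. Other pathway genes, and Krt5, Postn, Cthrc1, Spp1, Muc5ac and Agr2 among the markers, were named after their values were seen. Of the most expressed markers that the rule also takes, only Lyz2 and Scgb1a1 are given singly. Single sums have no test.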

Additional observations from a re-analysis of the deposited data

How the results depend on the processing

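With DESeq2 size factors, without the filter, with DESeq2 and with limma-voom, the same 14 genes of the family were called, 6 higher and 8 lower. With a 2-fold minimum 8 of the 14 remained, of the 8 lower ones 3, of the 5023 called mRNAs 1331 and of the 39 called pathway genes 10. Leaving out 1 library gave 9 to 14 called genes of the family, 4 to 6 higher and 5 to 9 lower, 3484 to 5213 called mRNAs, 28 to 36 called pathway genes and a pathway median log2 fold change of -0.24 to -0.18. Without a scaling factor that median was -0.10, against -0.21, 12 of the 14 calls were kept, and Dkk3 and Fzd1 turned to log2 fold changes of 0.0485 and 0.0767. With 1 library left out, signs turned for 5 genes that were never called: Dkk3 (-0.14 to 0.0395), Fzd1 (-0.0601 to 0.00315), Wnt11 (-0.0703 to 0.20), Wnt5b (-0.12 to 0.13) and Wnt9b (-0.47 to 0.0362). The cause was not tested. With 3 libraries a group, genes near 1 CPM have too few counts for small changes to be seen. No paired analysis was possible because the libraries of the 2 groups share no replicate numbers.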

Other observations

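In the lncRNA table, transcripts named for the opposite strand of 2 genes of the family were listed. Fzd10os had 49, 50 and 9 counts in silicosis libraries, against 18, 20 and 27 in controls, and Rspo4os had 4, 0 and 0 in silicosis libraries, against 3, 0 and 6 in controls. N138 was the lowest library for Fzd10os and the groups overlapped for both.

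On GENCODE M21, 7 genes of the family overlap an exon of another gene on the opposite strand, among them 1 called gene, Wnt7b. Windows of 50 bases shared with another gene, matched on both strands, made up at least 10% of the longest transcript for 3 genes. These were Fzd5 (16.5%), Sfrp2 (13.0%) and Rspo3 (11.8%), none of them called. Each shared windows with 1 other gene and is among the 7 with an opposite-strand overlap, so the shared stretch may be that overlap. With no strand setting stated, counts of these 3 may be uncertain to that extent.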
